A study of Mus musculus with 32 samples.

Results

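The comparison described here sets an uncloned pool of pre-B cells beside 5 pre-B-cell clones, in 6 libraries out of the 32 samples of the series. All 6 cell populations were labelled as cultured pre-B cells derived from bone marrow, on a C57BL6/Castaneous background, so that reads can be assigned to a C57BL/6 (B6) or a Castaneous (Cast) copy of the Igκ locus. Clones 3, 4, 8, B52 and E9-3 were each grown from a single cell, by limiting dilution of marrow cells expanded in the growth factor IL-7 on a layer of stromal cells, whereas the pool was not cloned. Each clone is therefore 1 event of cloning, and each population has 1 library in the comparison. A second 48 h library exists for clone 4, from a time course, and is used below as a check. Late passages of clone 3 are described in the study as having lost most of the Cast Vκ region. The study puts this loss down to a nonproductive join of the most distal segment. The labels give no passage for the library used here. Rearranged Igκ RNA was reverse transcribed from the constant region, amplified by PCR and sequenced (VJ-seq), and the reads were counted on 112 variable (Vκ) segments of each allele. The libraries were chosen by their labels alone, and no measured value entered that choice. The measure used throughout is the percent of an allele's reads that a segment took.

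The sources differ on what the pool was. Its label says that the cells were cultured, its table is named for 48 h, and the study's design text has IL-7 taken away from the clones and the pool alike, whereas the methods describe RNA either of clones after 48 h without IL-7 or of cells taken from the marrow of a B6/Cast mouse. Cloning, time in culture, the cells taken and the library cannot be told apart in a comparison of 1 pool with 5 clones. The files hold Vκ segments only, so that no marker of cell type or stage was measured.

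The κ light chain of an antibody is assembled when the RAG recombinase joins 1 Vκ segment to 1 Jκ segment in a pre-B cell, and withdrawal of IL-7 starts this process in culture. RAG recognises a signal beside each segment, made of a heptamer, a spacer and a nonamer. Segments that lie on the same strand as the constant region are joined by deletion of the DNA between them, and those on the opposite strand by inversion. An allele can rearrange again, joining a V segment upstream to a J segment downstream of the first join. VJ-seq reads come from RNA, and more cells with a join and more RNA per cell cannot be told apart.

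The pool was the most deeply read library, with 320951 reads on Vκ segments, of which 184251 were on the B6 and 136700 on the Cast allele. The clones held between 34291 reads (E9-3) and 165679 reads (clone 3). Of the reads of the pool 57.4% were on the B6 allele (95% Wilson interval 57.2 to 57.6), and the clones gave 51.2% (clone 3), 71.8% (clone 4), 62.9% (clone 8), 65.8% (B52) and 53.7% (E9-3). The pool thus lay inside the range of the clones in its allelic balance, above 2 clones and below 3. These intervals cover counting error only, as PCR reads without molecular identifiers are not independent molecules. With 1 pool library against 5 clones, an exact permutation test cannot give a two-sided p below 0.333, and no test of the pool against the clones is given.

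By entropy, the Cast reads of the pool were spread at least as evenly over the segments as those of any clone. As a measure of evenness, the effective number of segments was taken as the exponential of the Shannon entropy, which is the number of equally used segments that would give the same entropy. It was 39.2 on the Cast allele of the pool, against 38.7 in clone 3, 35.0 in clone 4, 33.6 in clone 8, 31.1 in E9-3 and 21.1 in B52 (mean of the clones 31.9 ± 6.66, SD, n = 5). The pool stood above all 5 clones, but above clone 3 by a margin far smaller than the spread between clones. The B6 allele of the pool gave 57.4 and was inside the range, with clones 8 (58.0) and 4 (57.8) just above it and clones 3 (50.9), E9-3 (48.5) and B52 (32.8) below it.

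The leading Cast segments took a smaller share in the pool than in the clones. The most abundant Cast segment of the pool, Igkv1-110, took 7.99% of the reads, whereas the leading segment took 12.8% to 27.7% in the clones. That segment was Igkv2-137, the segment farthest from the J cluster, in clones 3, 4 and 8, and the J-proximal Igkv3-7 in B52 and E9-3. The 5 leading Cast segments held 31.2% in the pool and 35.0% (clone 3) to 58.6% (B52) in the clones. The 10 leading ones no longer separated the pool, with 51.1% against 49.9% in clone 3 and 54.7% to 68.8% in the others. The leading B6 segment of the pool, Igkv1-135, took 6.92%, inside the range of the leading segments of the clones, 4.95% (Igkv4-59 in clone 8) to 16.2% (Igkv3-7 in B52). Igkv1-135 also led the B6 allele of clone 3 and of E9-3.

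Evenness and the number of segments read did not go together. At least 3 reads were found on the B6 allele for 98 segments in the pool and for 90 (B52) to 101 (clone 4) in the clones, and on the Cast allele for 76 in the pool and for 73 (E9-3) to 80 (clone 3) in the clones. With detection from 1 read, the Cast counts were 80 in the pool and 79 (B52) to 86 (clone 3) in the clones. When all libraries were also brought to equal depth (15886 Cast reads), still with detection from 1 read, the pool held 75.3 Cast segments and every clone held more, 77.3 (clone 8) to 81 (E9-3). At 18405 B6 reads the pool held 96.8 segments, inside the range of 91.5 to 100.3. A single segment reached 3 reads in the pool and in no clone, B6 Igkv14-130, with 6 reads.

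**Figure D1:**
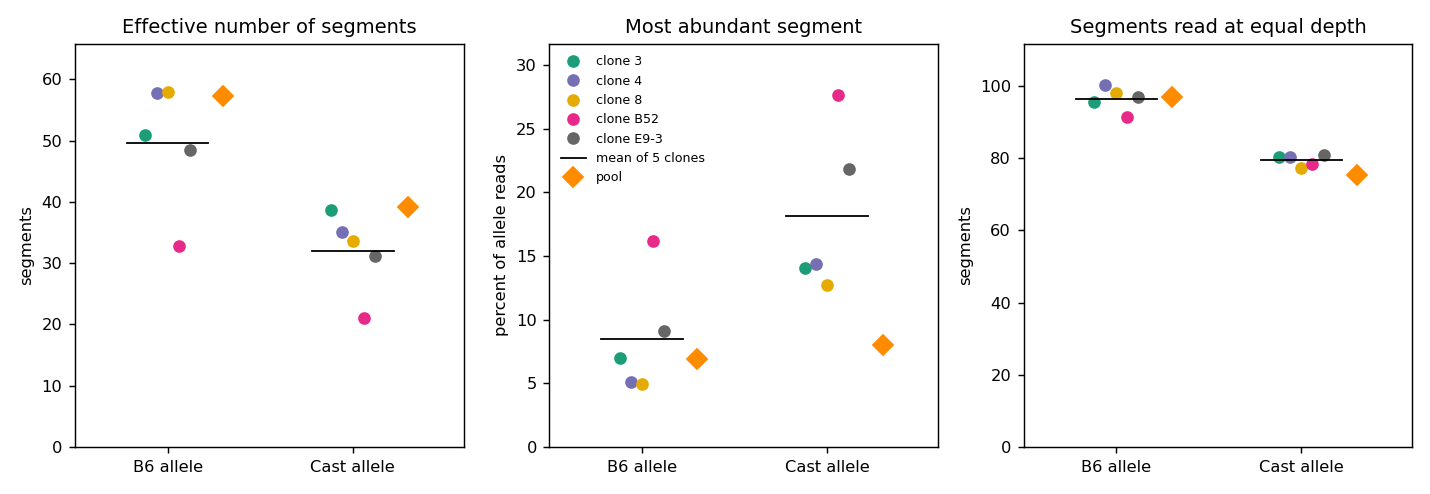
Effective number of segments, percent of reads on the most abundant segment and number of segments read at equal depth, for each allele. Each circle is 1 clone, the line is the mean of the 5 clones and the diamond is the pool. On the Cast allele the pool is above all clones in the effective number (39.2) and below all of them in the share of its leading segment (7.99%) and in the segments read at equal depth (75.3), and on the B6 allele it is inside the range in all 3 panels.

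As whole repertoires, the distances of the pool to the clones overlapped the distances between clones. The Bray-Curtis dissimilarity runs from 0, for repertoires with the same percents, to 1, for repertoires without a common segment. On the B6 allele it was 0.311 between the pool and clone 3, 0.326 to clone 4, 0.322 to clone 8, 0.405 to E9-3 and 0.534 to B52. Pairs of clones ranged from 0.212 to 0.483, with a median of 0.393. For Cast the pool was at 0.351 (clone 3) to 0.562 (B52) from the clones, and pairs of clones ranged from 0.203 to 0.617 with a median of 0.438. Against the mean of the 5 clones, the pool was at 0.319 on the B6 and 0.335 on the Cast allele. Clone 4 at 48 h was also sequenced in a time course, and its pair of libraries differed by 0.242 on the B6 and 0.305 on the Cast allele. The time-course library held only 10958 reads, and clones 4 and 8 were nearer to each other than this pair on both alleles (0.212 and 0.203). The order of the medians was not stable. For B6 it turned when a correlation of log2 percent was used in place of Bray-Curtis or the time-course library in place of the other of clone 4, and for Cast when only segments with at least 3 reads in every library were kept. Of the 10 leading Cast segments of the pool, 5 or 6 were also among the 10 leading ones of each clone, and of its 10 leading B6 segments 2 (E9-3) to 5 (clone 8). Within a library, the B6 and Cast alleles were at 0.482 from each other in the pool and at 0.443 (B52) to 0.590 (clone 8) in the clones.

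To find the segments used otherwise in the pool, each segment with at least 10 reads on an allele over the 6 libraries was called above the range when its percent in the pool was over that of the highest clone, and below it when under that of the lowest clone. On the B6 allele 99 segments were examined, of which 23 were above (23.2%) and 18 below (18.2%) the range of the clones, and 58 were inside it. Of the Cast segments, 83 were examined, with 18 above (21.7%), 14 below (16.9%) and 51 inside. Such counts are not particular to the pool: on the B6 allele clone 8 was the highest of the 6 libraries for 25 segments and B52 the lowest for 34, and on the Cast allele clone 8 was the highest for 18, as was the pool, and B52 the lowest for 23. The number of segments outside the range therefore did not set the pool apart, and the description below is of which segments they were and how far outside they lay.

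For most of these segments the intervals from read counts were apart, and a minority of the B6 ones were at least 2-fold from the nearest clone. As PCR reads are not independent molecules, intervals apart do not measure the error of sampling molecules or the spread between libraries of the same cells. For B6 the Wilson interval of the pool was clear of that of the nearest clone for 20 of the 23 segments above (20.2% of those examined) and 12 of the 18 below (12.1%), but only 4 were at least 2-fold above the highest clone (4.04%) and 6 at least 2-fold below the lowest (6.06%). For Cast the intervals were apart for 15 of the 18 above (18.1%) and 9 of the 14 below (10.8%), and 7 segments were at least 2-fold above (8.43%) and 9 at least 2-fold below (10.8%). Together, the 23 B6 segments above the range held 30.3% of the B6 reads of the pool and 7.05% to 14.0% in the clones, and the 18 Cast segments above it held 38.9% of the Cast reads and 7.86% to 16.9% in the clones. The segments below the range held 7.62% of the B6 reads in the pool and 21.3% to 35.4% in the clones, and 10.4% of the Cast reads in the pool and 18.3% to 28.2% in the clones. These sums follow from the way the segments were chosen and give only the weight of the segments in the repertoire. When the second 48 h library of clone 4 was added to the range, 21 of the 23 and 15 of the 18 B6 segments and 18 of the 18 and 11 of the 14 Cast segments kept their call.

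**Figure D2:**
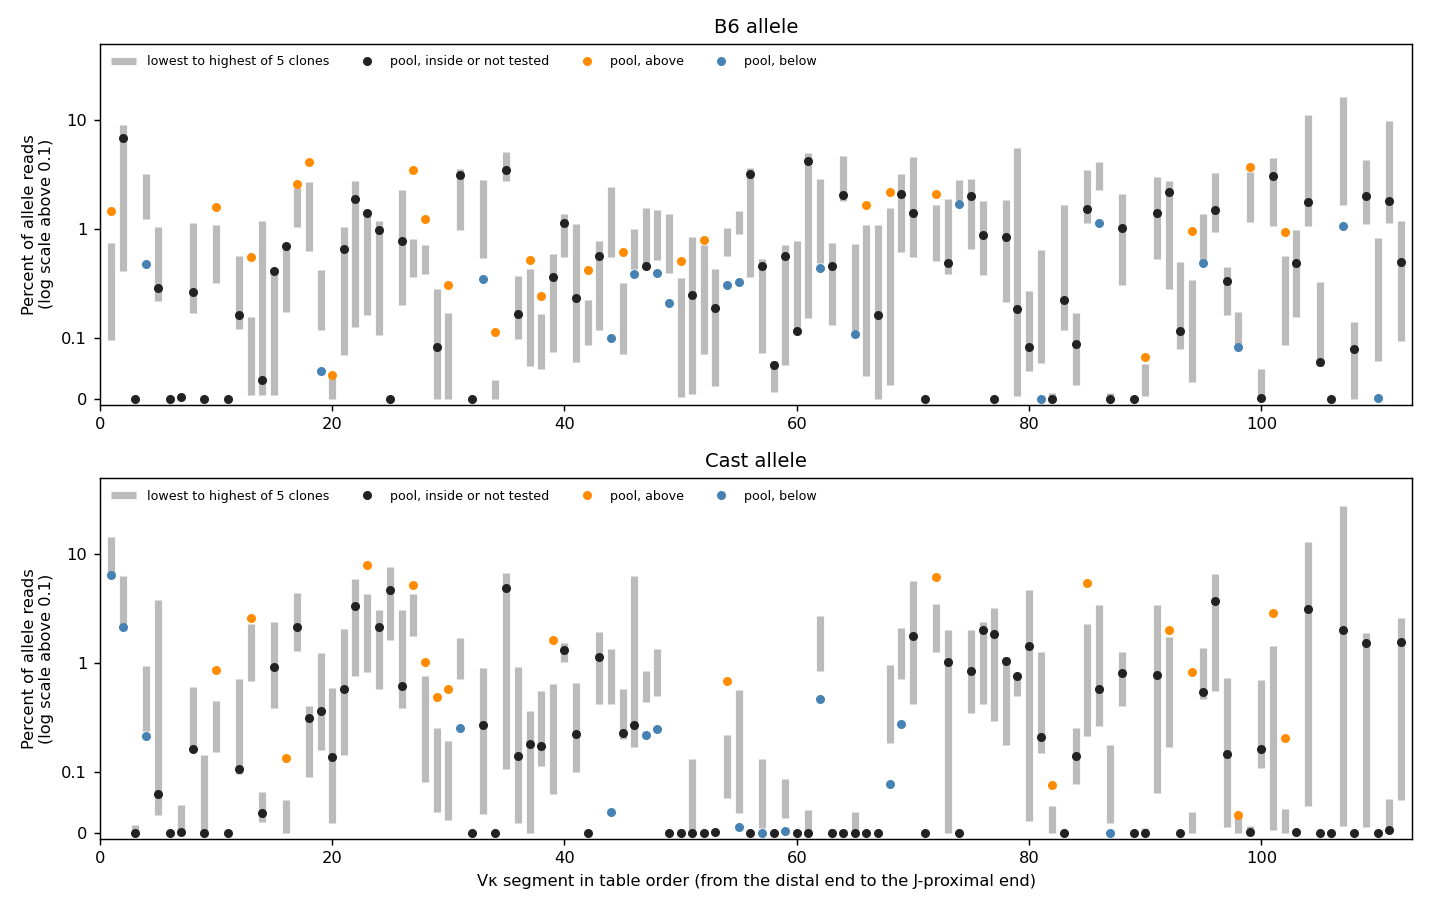
Percent of the allele's reads taken by each Vκ segment, in the order of the table from the distal to the J-proximal end of the locus, with a log scale above 0.1%. Grey bars run from the lowest to the highest of the 5 clones, and points are the pool, orange where above (23 on B6, 18 on Cast), blue where below (18 on B6, 14 on Cast) and black where inside the range or not examined.

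A part of the segments lay outside the range on both alleles. Of the 77 segments examined on both, 8 were above the range on both alleles, which is 50% of the 16 of them above on B6 and 47.1% of the 17 above on Cast. Over all 77 segments, 20.8% were above on B6 and 22.1% above on Cast. Above on both were Igkv17-127, Igkv9-124, Igkv15-103, Igkv14-100, Igkv12-98, Igkv12-46, Igkv6-23 and Igkv6-14. Another 5 were below on both, 33.3% of the 15 below on B6 and 38.5% of the 13 below on Cast, namely Igkv1-133, Igkv4-81, Igkv4-77, Igkv4-69 and Igkv4-58. Over all 77, 19.5% were below on B6 and 16.9% below on Cast. The B6 call of Igkv4-58 was lost when the second library of clone 4 was added to the range. The alleles of the pool went opposite ways for 4 segments: Igkv2-137 and Igkv4-53 were above on B6 and below on Cast, and Igkv4-70 and Igkv8-18 below on B6 and above on Cast. Of these, the Cast call of Igkv2-137 was lost with the second library of clone 4, and the intervals of Igkv8-18 were not apart on either allele, its B6 value being 1.06-fold under the lowest clone. Both alleles come from the same libraries, so that the alleles are not independent samples of the pool.

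To show what these segments look like to the recombinase, their signals are printed here from the GRCm38 (mm10) reference, which is the B6 sequence, with the heptamer and the nonamer in capitals and the 12-base spacer in lower case, 5′ to 3′ on the strand of the segment. The consensus is CACAGTG for the heptamer and ACAAAAACC for the nonamer. The first 8 signals belong to the segments above the range on both alleles:
Igkv17-127 (chr6:67861660-67861687, plus strand): CACAGTGctatgtcctcttACAGAAACC
Igkv9-124 (chr6:67942046-67942073, minus strand): CACAGTGatacaaattataACATAAACC
Igkv15-103 (chr6:68437926-68437953, plus strand): CACAGTGatataagtcatgACACAAACC
Igkv14-100 (chr6:68519478-68519505, plus strand): CACAGTGattcaagtcataACATAAACC
Igkv12-98 (chr6:68571236-68571263, plus strand): CACAGTGattcaagccataACATAAACC
Igkv12-46 (chr6:69764495-69764522, minus strand): CACAGTGattcaagccatgACATAAACC
Igkv6-23 (chr6:70260381-70260408, minus strand): CACAGTGcttcagcctcctACATAAACC
Igkv6-14 (chr6:70434924-70434951, minus strand): CACAGTGcttcagcctcctACATAAACC
The other 5 belong to the segments below the range on both alleles:
Igkv1-133 (chr6:67725662-67725689, plus strand): CACAGTGatacagactctaTCAAAAACT
Igkv4-81 (chr6:68990730-68990757, minus strand): CACAGTGatacaggctggaACAAAAACC
Igkv4-77 (chr6:69110876-69110903, minus strand): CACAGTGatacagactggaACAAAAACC
Igkv4-69 (chr6:69283766-69283793, minus strand): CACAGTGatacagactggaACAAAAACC
Igkv4-58 (chr6:69500226-69500253, minus strand): CACAGTGctacatactgaaACAAAAACA
All 13 have the consensus heptamer, each of the first 8 departs from the consensus nonamer at 1 base, and Igkv4-81, Igkv4-77 and Igkv4-69 have the consensus nonamer. Segments of a family share much of their signal (that of Igkv6-23 is the same as that of Igkv6-14, and that of Igkv4-77 the same as that of Igkv4-69), so that the 13 are not independent examples.

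**Figure D3:**
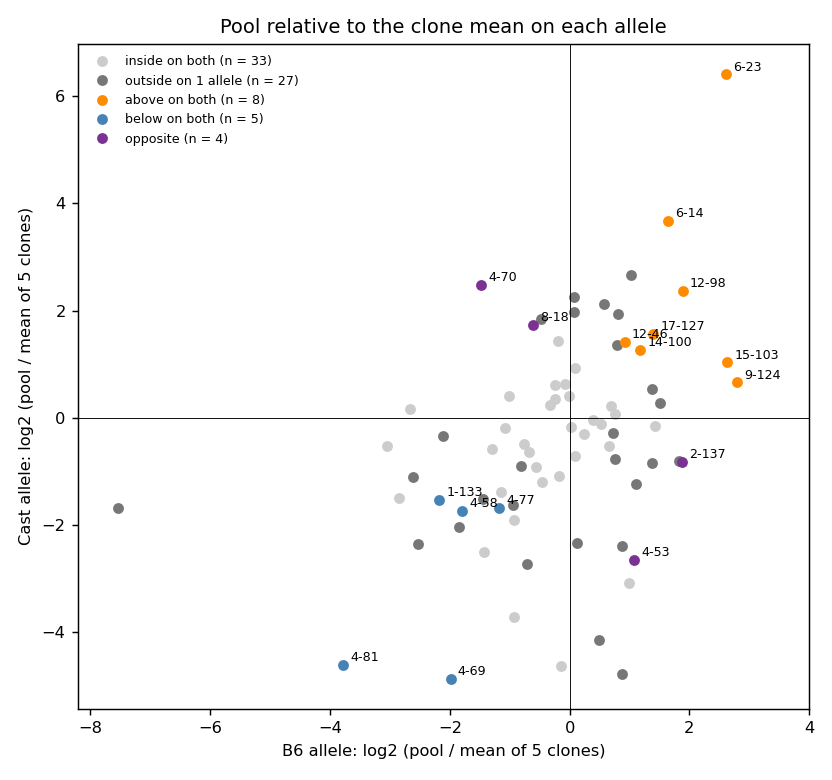
Ratio of the pool to the mean of the 5 clones, as log2, on the B6 allele (x axis) and the Cast allele (y axis), for the 77 segments examined on both alleles. The 8 segments above the range on both alleles are orange, the 5 below on both are blue and the 4 that went opposite ways are purple, with the family and number of the segment beside the point. A segment with fewer than 3 reads in the pool is drawn at the floor of 3 reads.

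Igkv15-103 was the segment that stood farthest above the clones on the B6 allele. This segment, the only counted member of its family, lies in the distal part of the locus (chr6:68437440-68437925, plus strand), and its chromatin was assayed by the study. It took 3.52% of the B6 reads in the pool (6489 reads, 95% interval 3.44 to 3.61), against 0.553% in clone 3, 0.403% in clone 4, 0.362% in clone 8, 0.805% in B52 and 0.723% in E9-3, which places the pool 4.38-fold above the highest clone. Of the Cast reads it took 5.20% in the pool and 1.97%, 1.77%, 4.33%, 1.89% and 2.71% in clones 3, 4, 8, B52 and E9-3, so that there the pool exceeded clone 8 by 1.20-fold only. Igkv15-103 was among the 5 leading segments of the pool on both alleles. Its closest relative among the counted segments, Igkv11-125, is only 75.0% identical to it over the last 280 bases of the gene.

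By ratio, Igkv6-23 gave the widest difference on the Cast allele. It took 0.827% of the Cast reads of the pool (1131 reads), whereas the clones held 3 reads (clone 3), 2 reads (clone 4), 0 reads (clone 8), 8 reads (B52) and 0 reads (E9-3), so that the pool was 24.5-fold above the highest clone. Of the B6 reads it took 0.966% in the pool and 0.223%, 0.0388%, 0.0267%, 0.158% and 0.342% in clones 3, 4, 8, B52 and E9-3, a 2.82-fold difference from the highest. The same family held Igkv6-14, at 0.205% of the Cast reads in the pool and at most 0.0396% in a clone (5.18-fold), and at 0.946% of the B6 reads against 0.0882% to 0.567% (1.67-fold). Igkv6-23 is 96.1% identical to Igkv6-13 and Igkv6-14 93.9% identical to Igkv6-23, and a read assigned to the wrong relative or allele would count here. Igkv6-13 had 2 Cast reads in the pool and 0 in the clones.

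The other 5 members above the range on both alleles were at most 3.51-fold above the highest clone. Igkv12-98 took 0.581% of the Cast reads in the pool against 0.0210% to 0.195% in the clones (2.98-fold above clone 8), and 0.304% of the B6 reads against at most 0.170% (1.79-fold above clone 4), with no B6 read in clone 3. Igkv12-46 was among the leading Cast segments of the pool at 6.25%, against 1.28% (B52) to 3.53% (clone 4), and on B6 it was at 2.11% against 0.512% to 1.65%. Igkv9-124, one of the examples in the study's map of accessibility, took 0.553% of the B6 reads of the pool against 0.00646% (clone 4) to 0.158% (E9-3), a 3.51-fold difference, but on the Cast allele 2.62% against up to 2.31% (clone 4), where the intervals of the pool and clone 4 were not apart. Igkv17-127 (1.48-fold on B6, 1.95-fold on Cast) and Igkv14-100 (1.72-fold on B6, 1.35-fold on Cast) exceeded the highest clone by less than 2-fold on each allele. These segments and the ones of the list below both alleles were picked after their calls were seen, where they were not already among the segments named by rank.

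Among the segments above the range on B6 and not on Cast were Igkv10-94, 3.76-fold above the highest clone, and Igkv2-137 and Igkv4-80, both by slightly less than 2-fold. Igkv10-94 had 209 reads in the pool (0.113%), 14 in clone 4 (0.0302%), 16 in clone 8 (0.0214%) and none in clones 3, B52 and E9-3, and it had no Cast read in any library. It is 97.1% identical to Igkv10-95, which was below the range on B6. There Igkv10-95 took 0.345% in the pool against 0.548% to 2.82% in the clones, and assignment of reads between the relatives was not tested. Igkv2-137, the most distal segment (chr6:67555497-67556216, plus strand), took 1.47% of the B6 reads in the pool and 0.747%, 0.209%, 0.0962%, 0.600% and 0.353% in clones 3, 4, 8, B52 and E9-3, which is 1.96-fold above clone 3. The same segment on Cast was the most used one in 3 of the clones, at 14.1%, 14.4% and 12.8% in clones 3, 4 and 8 and at 8.74% and 6.73% in B52 and E9-3, and the pool with 6.39% lay just under the lowest clone. That last call was lost when the second library of clone 4 was added. The part in the Cast value of clone 3 of the join described for its late passages was not tested. Igkv4-80 took 0.617% of the B6 reads in the pool and 0.0731% (clone 3) to 0.323% (clone 8) in the clones, 1.91-fold above the highest. The other leading B6 segments of the pool were Igkv4-59, at 4.22% inside the wide range of 0.152% (E9-3) to 4.95% (clone 8), Igkv1-117, at 4.13% against at most 2.69% (clone 3), and Igkv6-17, at 3.71% against at most 3.35% (clone 3).

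On the Cast allele alone, Igkv1-110 and Igkv6-32 were the most abundant segments above the range. Igkv1-110 took 7.99% in the pool (10928 reads) and 4.33%, 2.09%, 1.02%, 0.825% and 2.12% in clones 3, 4, 8, B52 and E9-3, whereas on the B6 allele the pool, at 1.42%, was inside the range of 0.163% to 1.48%. Igkv6-32 took 5.40% in the pool and 1.87%, 1.45%, 0.215%, 1.73% and 2.27% in the clones in the same order, 2.37-fold above E9-3, and on B6 it was inside the range at 1.53%. Igkv12-89 took 1.63% in the pool against 0.0634% to 0.638% in the clones. Igkv4-70 was at 0.685% in the pool against 0.0567% to 0.220% on Cast, and at 0.308% against 0.571% to 1.02% on B6, so that its share in the pool was above every clone on one allele and below on the other. It is 95.7% identical to Igkv4-69, which was below the range on both alleles. Assignment of reads between these relatives was not tested. Igkv17-121 had 184 Cast reads in the pool, 10 in clone 4, 22 in clone 8, 1 in clone 3 and 0 in B52 and E9-3.

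Igkv10-94 on B6 and Igkv17-121 on Cast thus shared a pattern, in that clones 4 and 8 held reads as the pool did and the other 3 clones held almost none. Igkv5-45 showed it too, with 1390 Cast reads in the pool, 370 in clone 4, 798 in clone 8, 15 in clone 3 and 0 in B52 and E9-3. Igkv4-73 had 0 Cast reads in the pool and in clones 4 and 8, and 65, 31 and 10 in clones 3, B52 and E9-3. The Igkv3 family on the Cast allele also divided the clones in this way, and took 0.175% in clone 4 and 0.177% in clone 8, and 11.5%, 44.7% and 29.8% in clones 3, B52 and E9-3. There the pool, at 8.23%, lay between. The methods name a pair of read lengths without saying which libraries had each, and the part of read length or alignment in this split was not tested. Against either set of clones alone, only counts and library-level values are given with the alternatives, and none for these segments or for the Igkv3 family.

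Igkv4-81 and Igkv4-69 were at least 2-fold below the lowest clone on both alleles, Igkv4-81 by more. It took 0.0999% of the B6 reads in the pool (184 reads) and 0.560%, 1.05%, 0.771%, 2.43% and 2.05% in clones 3, 4, 8, B52 and E9-3, 5.61-fold under the lowest clone. Of the Cast reads it took 0.0344% in the pool (47 reads) and 0.427%, 0.947%, 0.715%, 0.787% and 1.35% in the same clones, 12.4-fold under the lowest. Every clone was thus far above the pool on both alleles, and clone 3 was the nearest on both. Igkv4-69, of the same family and closest in sequence to Igkv4-70, took 0.325% of the B6 reads in the pool and 0.904% to 1.46% in the clones (2.78-fold). On Cast it had 13 reads in the pool (0.00951%) and 6 reads in clone 4 (0.0328%), with up to 0.567% in E9-3. That is 3.45-fold under clone 4, but the intervals were not apart at these counts. Igkv1-133 took 0.478% of the B6 reads in the pool and 1.24% to 3.18% in the clones (2.58-fold), and on the Cast allele 0.214% against 0.241% to 0.936%, where the intervals were not apart. Igkv4-77, a pseudogene by annotation, was 1.33-fold under the lowest clone on B6 and 1.99-fold on Cast, and Igkv4-58 1.11-fold and 1.81-fold.

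A pair of B6 segments read in all 5 clones was all but missing from the pool. Igkv18-36 (chr6:69992465-69992977, minus strand), the only counted member of its family, had 0 of 184251 B6 reads in the pool, which allows a share of up to 0.00163%, whereas clones 3, 4, 8, B52 and E9-3 held 355, 86, 44, 96 and 118 reads (0.419%, 0.185%, 0.0588%, 0.211% and 0.641%). Taken against the floor of 3 reads in the pool, B6 Igkv18-36 was at least 36.1-fold lower in the pool than in clone 8, the lowest clone. The Cast copy of the segment was read in the pool, with 287 reads (0.210%), inside the range of 0.152% to 1.27%. Its nearest relative, Igkv5-39, shares only 67.5% of the bases compared. Igkv3-3 had 1 B6 read in the pool and 188, 29, 75, 376 and 89 in clones 3, 4, 8, B52 and E9-3, a share of 0.0625% to 0.827%, and no Cast read in any library. Igkv2-116 took 0.0461% of the B6 reads in the pool and 0.119% to 0.424% in the clones. Igkv6-29 had 0 Cast reads in the pool and at least 3 in every clone.

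Of the 14 Cast segments below the range, 9 belonged to the Igkv4 family, which made up 19 of the 83 Cast segments examined. Igkv10-96 took 0.254% of the Cast reads in the pool and 0.715% to 1.71% in the clones, while on B6 it was inside the range at 3.14%. Igkv4-50 took 0.276% against 0.723% to 2.10%, Igkv4-53 0.0797% against 0.186% to 0.957%, and Igkv4-78 0.221% against 0.443% to 0.846%. Igkv4-53 on B6 went the other way, at 2.18% in the pool against 0.0220% (B52) to 1.57% (clone 4), and Igkv4-50 and Igkv4-78 were inside the range. Igkv4-61 with 4 Cast reads and Igkv4-63 with 0 Cast reads in the pool rested on few reads, and both lost their call with the second library of clone 4.

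Summed by family, the pool was outside the range for 6 families on the Cast allele and for 2 on the B6 allele. Vκ families are groups of segments of like sequence, and 14 of them had at least 2 counted segments. Of the Cast families 3 were above (21.4%) and 3 below (21.4%) the range, and on the B6 allele 2 were above (14.3%) and 0 below (0%). The Igkv4 family, the largest with 30 segments, took 3.26% of the Cast reads in the pool and 8.09%, 7.17%, 10.4%, 12.9% and 10.1% in clones 3, 4, 8, B52 and E9-3. The pool was thus under the lowest clone by more than the spread between clones (SD 2.21 around a mean of 9.73). The B6 share of the same family was inside the range, at 23.4% against 12.2% (clone 3) to 35.1% (clone 8), with 7 of its 30 segments above and 8 below the range, beside 23.2% above and 18.2% below over all B6 segments examined. For Cast, 19 of its segments were examined, of which 9 were below and 1 above, beside 16.9% below and 21.7% above over all Cast segments.

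The Igkv12 family took 13.1% of the Cast reads in the pool and 5.19%, 9.47%, 9.86%, 2.87% and 3.67% in clones 3, 4, 8, B52 and E9-3, with 3 of 6 segments examined above the range (21.7% over all Cast segments), whereas on B6 the pool was inside at 5.55%. The Igkv6 family was barely above the range on Cast, at 13.8% against 13.5% in clone 3 and 0.867% to 9.57% in the others, and it was inside on B6 at 13.6%. Igkv17 was the family above on both alleles, at 2.31% against 0.524% to 1.82% on B6 and at 1.01% against 0.152% to 0.450% on Cast. The Igkv2 family was above on B6 (3.14% against 0.899% to 2.75%) and below on Cast (9.51% against 9.79% to 20.1%), and in both cases most of the difference from the clone mean was in Igkv2-137. Igkv10 was below on Cast, at 0.527% against 0.779% to 2.62%.

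The largest gap between the pool and the clone mean on B6 was in the J-proximal Igkv3 family, which nevertheless was inside the range. It took 7.30% of the B6 reads in the pool and 17.3%, 5.96%, 7.85%, 42.8% and 20.5% in clones 3, 4, 8, B52 and E9-3. The clones did not form a common level here, and clone B52 alone lay more than 2-fold above the next one. The Igkv1 family had the largest difference in the other direction on B6, at 14.9% in the pool against a clone mean of 10.3% ± 5.47 (SD, n = 5), again inside the range. Igkv6 and Igkv14 followed above the clone mean and Igkv8 and Igkv5 below it, and all were inside the range. Igkv3-7, the leading segment of B52 on both alleles, took 1.06% of the B6 reads in the pool, under the lowest clone (1.66%, clone 4), a call lost with the second library of clone 4, but on Cast 2.01%, inside a range of 0.0109% (clone 4) to 27.7% (B52).

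**Figure D4:**
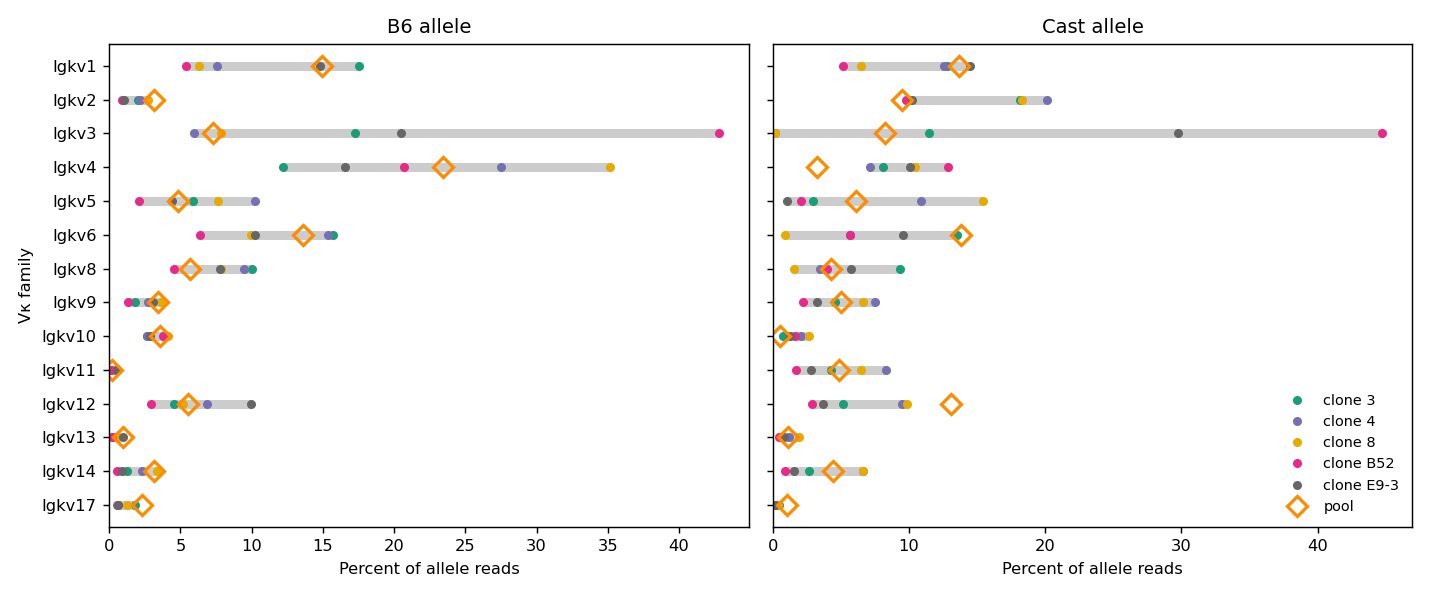
Percent of the allele's reads taken by each of the 14 Vκ families with at least 2 counted segments. Circles are the 5 clones, the grey bar runs from the lowest to the highest of them and the open diamond is the pool. The pool is outside the bar for Igkv2 and Igkv17 on B6, and for Igkv2, Igkv4, Igkv6, Igkv10, Igkv12 and Igkv17 on Cast.

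By position, the pool held more of its B6 reads at the distal end of the locus than any clone. The 111 segments with a known position were cut into 3 classes of 37 in order of position, the distal one from Igkv2-137 to Igkv4-91 (chr6:67555497-68769103). It took 38.3% of the B6 reads in the pool and 32.7%, 23.9%, 25.7%, 19.97% and 27.9% in clones 3, 4, 8, B52 and E9-3, which gives a clone mean of 26.0% ± 4.72 (SD, n = 5). The pool exceeded clone 3 by more than this SD, and the 56 most distal segments gave 49.0% in the pool against 29.8% to 43.8%. Shares of an allele depend on one another. The J-proximal Igkv3 family took 7.30% of the B6 reads in the pool, 17.3% in clone 3 and 5.96% (clone 4) to 42.8% (B52) over all clones. Its part in the distal difference was not tested. The distal class took 49.2% of the Cast reads of the pool, inside a range of 25.9% (B52) to 60.5% (clone 4). In the middle class the pool was inside the range on both alleles, at 31.0% (B6) and 16.1% (Cast). In the J-proximal class it took 30.6% of the B6 reads, close to the lowest clone (clone 8, 30.3%), and 34.7% of the Cast reads.

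Orientation did not set the pool apart. Segments on the strand of the constant region took 43.4% of the B6 reads in the pool against 28.1% (clone 4) to 59.4% (B52), and 51.3% of the Cast reads against 49.5% (clone 8) to 69.8% (B52). The 13 annotated pseudogenes, which are not taken to give a working light chain, took 1.16% of the B6 reads in the pool and 1.69%, 3.28%, 5.31%, 2.48% and 2.21% in clones 3, 4, 8, B52 and E9-3, and the pool was under every clone. Their Cast share was 7.33% in the pool, inside a range of 3.26% (B52) to 12.1% (clone 4). Pseudogene status is that of the B6 reference and was applied to both alleles.

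Of the 111 signals read from the reference, 36 (32.4%) matched the consensus heptamer and nonamer at every base, 95 had the exact heptamer and 38 the exact nonamer. The signal was taken as the best match within 10 bases of the annotated end of the gene, and for 105 segments it started right after that end. No Cast signal was read, and the signals of the B6 reference were applied to both alleles. Among the segments below the range, 10 of the 18 on B6 (55.6%) and 7 of the 14 on Cast (50%) had the full consensus, against 5 of the 23 above on B6 (21.7%) and 1 of the 18 above on Cast (5.56%), and against 35 of 98 (35.7%) and 23 of 83 (27.7%) of all located segments examined. By reads, the 36 segments took 33.0% on B6 in the pool and 33.6% (clone 3) to 68.4% (B52) in the clones, and 23.1% on Cast against 23.4% (clone 4) to 68.4% (B52). The pool was under the lowest clone on both alleles, by less than 1 percentage point on each. Of the 36 segments 22 belong to the Igkv4 and 9 to the Igkv3 family, so that this feature and the family cannot be told apart. The 5 segments outside these families took 6.41% of the B6 reads in the pool and 5.03% to 7.56% in the clones, and 12.7% of the Cast reads against 9.41% to 22.6%. With the heptamer alone the segments above and below differed little, with 82.6% and 83.3% exact on B6 and 88.9% and 92.9% on Cast.

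The study assayed histone acetylation at 7 of the counted segments and showed 4 as examples of its accessibility map. Of the 7, Igkv15-103 was above the range on both alleles, Igkv4-91 above on B6 (0.519% against at most 0.432% in clone 8), Igkv6-32 above on Cast and Igkv18-36 below on B6, all other calls being inside. Igkv16-104, the neighbour of Igkv15-103, was inside on both, at 0.773% on B6 (clones 0.199% to 2.30%) and 0.623% on Cast (0.389% to 3.07%). Igkv7-33 was at 0.0896% on B6 and 0.140% on Cast, and Igkv19-93 at 3.52% on B6, within 2.76% to 5.14%, and at 4.90% on Cast, where the clones were spread over 0.278%, 1.62%, 6.71%, 0.321% and 0.107% in clones 3, 4, 8, B52 and E9-3. Of these 4 examples, Igkv9-124 and Igkv2-137 are described above. Igkv1-135 led the B6 allele of the pool inside a range of 0.413% (clone 8) to 9.09% (E9-3) and was at 2.16% on Cast, just under the lowest clone (2.20%, B52), and Igkv2-112 was inside on both alleles, at 0.651% and 0.584%.

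The balance of the alleles was then compared segment by segment, as the B6 percent of a segment's reads over both alleles, in the 92 segments with at least 10 reads in every library. In the pool 15 of these were more B6 than in any clone (16.3%), 17 less B6 than in any clone (18.5%) and 60 inside the range. Some of the 92, such as Igkv11-106 and Igkv13-85, were read on a single allele in every library and so counted as inside. In the pool 56 of the 92 segments (60.9%) had between 20% and 80% of their reads on B6, against 47, 40, 39, 45 and 51 in clones 3, 4, 8, B52 and E9-3. The pool therefore held more segments with such a balance of the alleles than any clone, with E9-3 (55.4%) the nearest. Counts of segments found on both alleles, at a minimum of 3 reads, did not follow this, with 72 in the pool, 74 in clone 3 and 67 to 71 in the other clones. The pool is also the deepest library, and the part of depth in this count was not tested beyond the read minimum.

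A few segments stood far outside the range in their allelic ratio. Igkv4-70 was 37.7% B6 in the pool (95% interval 35.3 to 40.2) and 82.3%, 94.9%, 88.7%, 95.7% and 94.6% in clones 3, 4, 8, B52 and E9-3. Igkv6-32 was 27.7% B6 in the pool and 58.1%, 80.8%, 89.9%, 55.7% and 64.2% in the same clones, and Igkv6-23 was 61.1% against 90% to 100%. Each of the 3 was thus mostly B6 in every clone, and in the pool the Cast allele held most reads of Igkv4-70 and Igkv6-32. Igkv18-36 was at 0% in the pool, from 287 reads, and at 30.4% to 51.2% in the clones. Igkv5-45, at 39.3%, was under a range of 55.5% (clone 8) to 100%, which clones 3, B52 and E9-3 set at the top with almost no Cast read.

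In the other direction, Igkv4-80 was 78.5% B6 in the pool (1449 reads, interval 76.3 to 80.5) and 27.4%, 54.9%, 51.2%, 27.7% and 31.7% in clones 3, 4, 8, B52 and E9-3. Igkv10-96 was 94.3% against 54.7% (B52) to 78.0% (clone 8). The distal Igkv2-137, almost wholly a Cast segment in the clones (1.26% to 11.7% B6), was at 23.6% B6 in the pool, and Igkv9-124 was at 22.2% against 0.706% to 14.2%. Igkv1-122 was at 37.2% in the pool against 3.16% (B52) to 28.3% (E9-3). Igkv2-137, Igkv9-124 and Igkv1-122 were mostly Cast and Igkv10-96 mostly B6 in all 6 libraries, whereas Igkv4-80 was mostly B6 in the pool and in clones 4 and 8 and mostly Cast in the others.

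**Figure D5:**
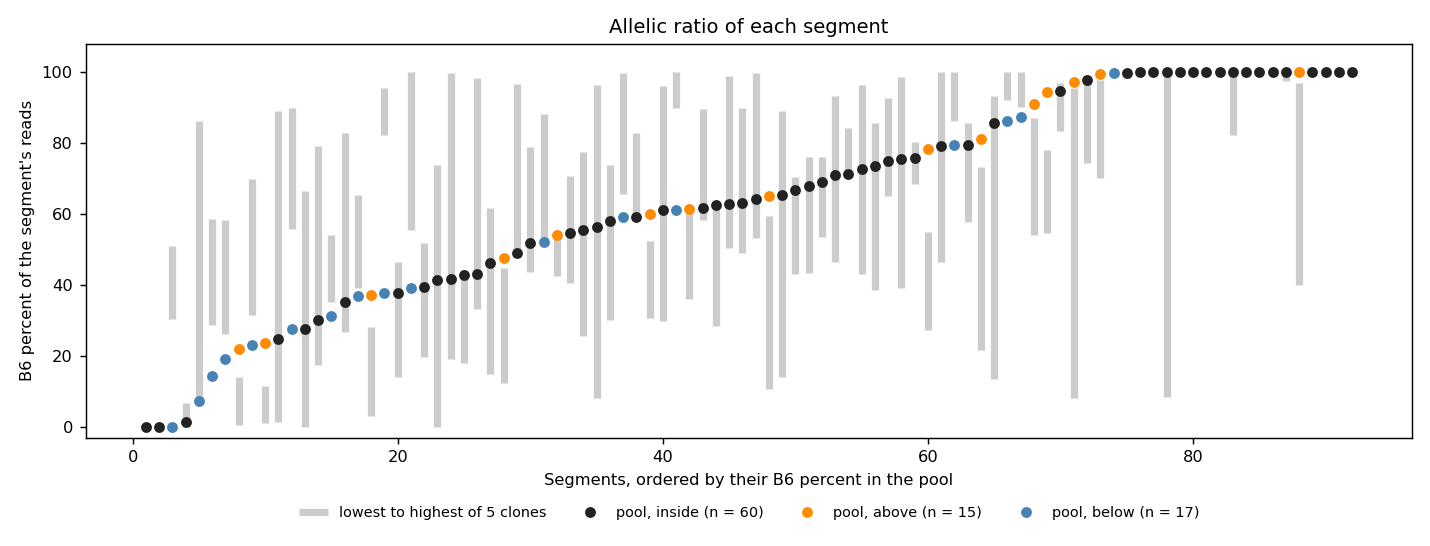
B6 percent of each segment's reads over both alleles, for the 92 segments with at least 10 reads in every library, in order of the value in the pool. Grey bars run from the lowest to the highest clone and points are the pool, orange where above (n = 15), blue where below (n = 17) and black where inside the range (n = 60).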

How the data were processed

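The Igκ VJ-seq libraries of the pool and of clones 3, 4, 8, B52 and E9-3 were analysed, with 1 library each. For each of 112 Vκ segments and each allele, the authors deposited the count of reads, not normalized. Per the study's methods, reads were trimmed for quality, alignment was done with Bowtie2 against a genome made of both parental sequences and counting with HTSeq, and the submitters' processing notes name the same programs, with the mm10 build and without versions. The methods give a pair of read lengths without naming libraries, and reads of near-identical segments may be split between them: 47 of 111 segments have a relative at least 95% identical over 280 bases.

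Percent of the allele, effective numbers, Bray-Curtis dissimilarities, equal-depth (rarefied) segment numbers with detection from 1 read and 95% Wilson intervals were computed from the counts with Python 3.11.15, NumPy 2.4.6, SciPy 1.17.1 and pandas 2.3.3, and figures with matplotlib 3.10.9. A segment counted as found from 3 reads, was called against the range of the 5 clones from 10 reads over the 6 libraries, and for the allelic ratio needed 10 reads in every library. Ratios to a count of 0 used a floor of 3 reads. The calling step was tested only on simulated counts with shifts far larger than most of those called here, and false calls were not assessed. No p-value is given, since an exact permutation test of 1 library against 5 cannot go below 0.333 (two-sided), and no count model was fitted. Genes are those of GENCODE M21, and recombination signals were read from GRCm38. 111 of the 112 segments were located, and Igkv8-23-1 was not.

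Named were, on each allele, the 5 leading segments of the pool, the leading segment of each clone, up to 6 segments farthest above (at least 20 reads in the pool) and 6 farthest below the range (at least 20 reads in every clone), the segments whose chromatin or accessibility the study showed, the families with the largest differences from the clone mean and the segments farthest outside in allelic ratio. Members and lists were chosen with earlier results of these data known. The alternatives tried were each clone left out, clones 4 and 8 or clones 3, B52 and E9-3 alone, the time-course library of clone 4, another denominator, and other indices, read minimums, margins and position classes. The RNA and ATAC libraries and clone 4 at 12, 24 and 36 h were not used here.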

Additional observations from a re-analysis of the deposited data

Results flagged for a closer look

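Of 60 values checked for a clone far from the other 4, 1 was found. Chance alone flags about 1 in 20 groups in such a check. Igkv19-93 took 6.71% of the Cast reads in clone 8, and 0.278%, 1.62%, 0.321% and 0.107% in clones 3, 4, B52 and E9-3. The pool, at 4.90%, was inside the range only because of clone 8, and without that clone it would be above the range.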

How the results depend on the processing

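Across the alternatives no value called outside the range changed sign, which for subsets of the 5 clones follows from the call itself. Of the library-level values or counts 197 stayed within the spread between clones or within 1.5 times the count, and 33 moved. For single segments 410 values stayed and 31 moved. By percent of the whole library, the B6 difference from the clone mean fell from 2.95 to 1.68 (Igkv15-103), 2.54 to 1.43 (Igkv1-117) and 1.07 to 0.607 (Igkv2-137). For B6 Igkv19-93 it went from -0.515 to -1.59 with the time-course library of clone 4. Leaving out 1 clone at a time moved the B6 share of the pool minus the clone mean between -6.12 and -0.977 percentage points, the effective number between 3.56 and 9.84 (B6) and between 4.56 and 8.98 (Cast), segments above from 23 to 32 (B6) and 18 to 20 (Cast), segments below from 19 to 23 (B6) and 15 to 21 (Cast), distal share from 10.8 to 13.9 (B6) and -1.51 to 7.13 (Cast), same-strand share from -2.88 to 4.96 (B6) and -11.9 to -6.80 (Cast), pseudogene share from -2.16 to -1.25 (B6) and -1.54 to 0.680 (Cast), and segments more B6 than any clone from 15 to 17 and less B6 from 17 to 22.

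Families above on B6 ranged from 2 to 4 and below from 0 to 2 (4 above without clone 8, 1 below without clone 4, 2 below without B52), on Cast 3 to 4 above and 3 below. With clones 4 and 8 alone, a range of fewer clones, 40 segments were above and 41 below on B6 and 35 below on Cast, 4 and 4 families were above and below on B6 and 6 and 8 on Cast, the same-strand B6 difference was 15.2 and the Cast pseudogene difference -4.68, and 40 segments were less B6. With clones 3, B52 and E9-3 alone, 40 B6 and 34 Cast segments were above and 29 Cast segments below, 5 B6 and 8 Cast families were above and 1 B6 family below, and 28 segments were more B6. A margin of 2-fold left 4 above and 6 below on B6 and 7 and 9 on Cast, and intervals apart left 9 below on Cast. The B6 effective number minus the clone mean was -0.518 with clones 4 and 8 alone and 13.3 with clones 3, B52 and E9-3 alone. For the B6 share of the pool minus the clone mean, the same sets gave -9.91 and 0.521 percentage points. By percent of the whole library 1 B6 family was below. The difference in median dissimilarity on B6, -0.0665, became 0.0355 with 1 minus Spearman's correlation, 0.0311 with 1 minus Pearson's and 0.00531 with the time-course library of clone 4, and that on Cast, -0.0467, became 0.0134 with only segments of at least 3 reads in every library. With heptamer and nonamer in place of the heptamer, the share of exact signals above minus below was -33.8 (B6) and -44.4 (Cast) in place of -0.725 and -3.97 percentage points. Cast segments found, 0.6 above the clone mean, were -1.8 with detection from 1 read, -4.26 with that and equal depth, and 3.4 with the time-course library of clone 4. At least 50 reads left 11 segments less B6. The causes were not tested. The second clone 4 library, added to the range after the data were seen, left 21, 15, 18 and 11 segments.

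No paired analysis was possible because the pool has 1 library and the labels pair it with no clone. Depth limits segments under 3 reads: 0.00163% of B6 and 0.00219% of Cast reads in the pool, and up to 0.0163% and 0.0189% in E9-3.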
